A study of Mus musculus with 2 samples.

Results

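This account covers 10 genes of the peritoneal mesothelium in cultured mouse peritoneal macrophages: Gata6, Wt1, Msln, Upk1b, Upk3b, Krt8, Krt18, Krt19, Aldh1a2 and Cav1. They were picked for their higher signal on the array of cells treated with geranylgeraniol (GGOH). Their differences between the arrays are therefore a description and were not tested. The platform's annotation gave these genes, each as the only symbol, for 18 of 34945 probe sets with 1 gene symbol, and the 10 genes are among 18093 genes represented. A probe set is a group of short oligonucleotides that together report 1 signal for a transcript.

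The macrophages were harvested from C57BL/6J mice 3 days after they had received thioglycolate, which recruits such cells into the peritoneum. The control culture received LPS+CPN, where LPS is lipopolysaccharide and CPN is an abbreviation that the labels do not spell out. The other culture received LPS+CPN+GGOH, so both cultures carried LPS and CPN and differed by GGOH, the alcohol of a mevalonate-pathway isoprenoid. There was 1 array per treatment, so no p-value or error between samples can be given. The labels state no dose or treatment time and do not say whether cells of several animals were pooled.

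Mesothelium is the single layer of flat, keratin-containing cells that lines the peritoneal cavity and its organs. It expresses the zinc-finger transcription factor WT1, the surface protein mesothelin and the retinoic acid synthesis enzyme ALDH1A2. GATA6 is a transcription factor of mesothelium and also of resident peritoneal macrophages, in which retinoic acid is known to promote its expression. A signal from such a culture is a mean over all cells present. More cells of a type and more RNA per cell cannot be told apart.

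RefSeq sequences before the annotated start were found for 5 of the 10 members. They are shown for 3 of them. Krt8 and Krt18 were chosen because they encode the partners of a single filament and differed in the same direction. Upk3b was chosen because it is a mesothelial gene whose probe sets gave bounds of different size. Each line gives the 250 bases before the start, 5′ to 3′ on the gene's strand, in build GRCm38.p6. Capitals mark matches, on either strand, to the motifs described after the sequences. The Krt8 window is chr15:102004343-102004592 on the minus strand, the Krt18 window chr15:102027966-102028215 on the plus strand, and the Upk3b window chr5:136038246-136038495 on the plus strand.
Krt8: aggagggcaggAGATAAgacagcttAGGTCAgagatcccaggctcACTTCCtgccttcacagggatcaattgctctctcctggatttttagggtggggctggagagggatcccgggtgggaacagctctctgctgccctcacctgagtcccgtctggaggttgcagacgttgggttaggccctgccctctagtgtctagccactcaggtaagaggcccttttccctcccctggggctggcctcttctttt
Krt18: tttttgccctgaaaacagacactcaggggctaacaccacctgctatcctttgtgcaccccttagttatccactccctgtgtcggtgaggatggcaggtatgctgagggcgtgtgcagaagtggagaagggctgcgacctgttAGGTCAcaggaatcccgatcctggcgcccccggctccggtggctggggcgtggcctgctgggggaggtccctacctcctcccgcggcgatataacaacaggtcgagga
Upk3b: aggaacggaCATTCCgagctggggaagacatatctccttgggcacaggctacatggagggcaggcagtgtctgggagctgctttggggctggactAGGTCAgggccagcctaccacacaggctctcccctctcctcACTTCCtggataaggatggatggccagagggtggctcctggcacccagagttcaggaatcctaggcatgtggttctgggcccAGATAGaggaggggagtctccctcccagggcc

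The annotated starts of Krt8 and Krt18 lie 23874 bases apart and the genes point away from each other. Counts are given over all 6 windows of the 5 members with a sequence, which add 1 window of Aldh1a2 and 2 of Cav1 to those printed. AGGTCA, the half-site bound by nuclear receptors, occurs in 3 of the 6 windows, those printed, and in 14.0% of 32851 windows of the same length. A GATA site (AGATAA, also with T as its first letter or G as its last) occurs in 3 of 6 (Krt8, Upk3b and 1 of Cav1) and in 26.5% of all windows. An ETS site (GGAAGT) occurs in 2 of 6 (Krt8 and Upk3b) and in 19.7% of all. A TEAD site (GGAATG) occurs in 1 of 6 (Upk3b) and in 12.6% of all. A GC box (GGGCGG) and the core promoter element TATAAA each occur in 1 of 6, the other Cav1 window, and in 32.7% and 12.4% of all. A WT1 site (GCGTGGGNG) occurs in 0 of 6 and in 1.65% of all, and the Aldh1a2 window holds none of the motifs. No matches overlap in the printed windows. The motifs were chosen with these sequences in view, and a match is a description of letters, not a site in use.

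The deposited signal was higher with GGOH for 18 of 18 member probe sets, where 51.1% of all probe sets with 1 gene symbol were higher. A floor was set at a signal of 59.9, the 50th percentile of all non-control signals of both arrays, because a single low signal cannot be told from background. A signal at or under the floor gives only a bound, written "at least". Of the 18 probe sets, 6 were above the floor on both arrays, 11 on the LPS+CPN+GGOH array only, and 1 on neither. At least 2-fold higher signals, bounds included, were found for 15 of the 17 measured probe sets, against 6.29% of measured probe sets overall.

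**Figure D1:**
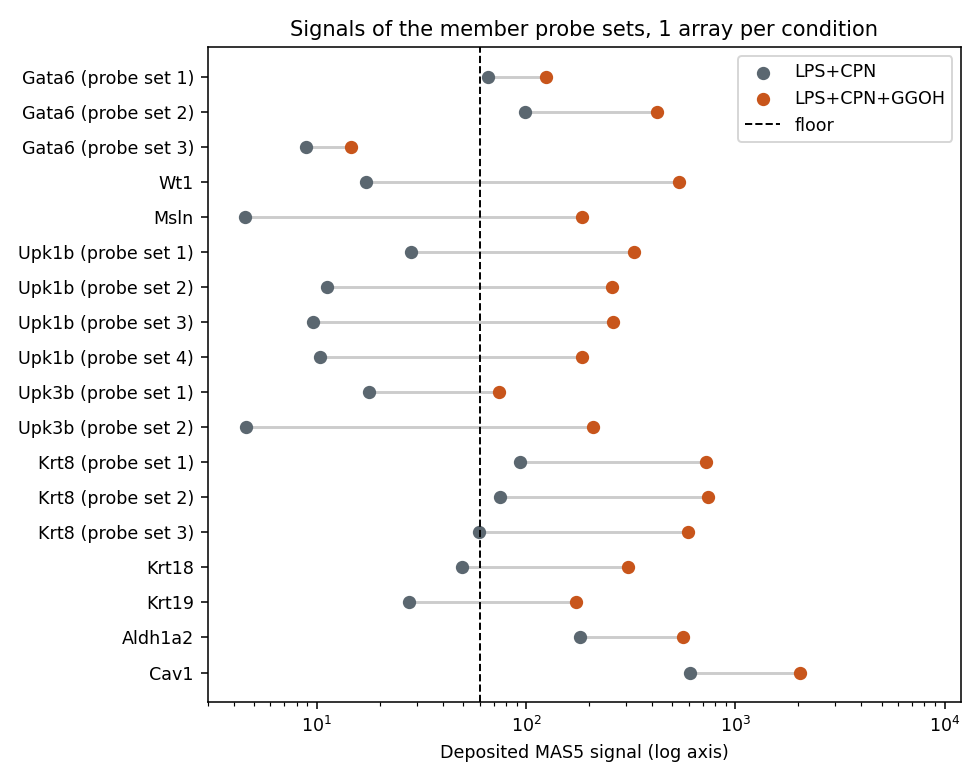
Deposited signal (horizontal log axis) of each of the 18 member probe sets on the LPS+CPN array (grey) and the LPS+CPN+GGOH array (orange), 1 array per condition, with the floor of 59.9 dashed. Every orange point lies to the right of its grey point, and 12 grey points lie at or left of the floor.

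For gene-level values each gene was represented by its brightest probe set (by mean log2 deposited signal), without the cross-hybridizing _x_at class. By this rule 9 of the 10 members were at least 2-fold higher with GGOH and none was lower. With the probe set chosen after signals were raised to the floor, an alternative added after seeing the data, all 10 were. Over all 11518 measured genes, 5.50% were at least 2-fold higher (634 genes) and 1.66% lower (191 genes). Of all genes past 2-fold 76.8% were higher, a share of 61.4% when each array was divided by its median and of 62.1% after quantile normalization. The median log2 ratio of the members was 1.91, with a range from 0.30 to 3.17, and that of all measured genes was -0.01. Since the members were selected on this difference, nothing is read from these shares. Only 4 members, Gata6, Krt8, Aldh1a2 and Cav1, were above the floor on both arrays. The other 6 passed the floor through the LPS+CPN+GGOH array alone, as did 8.52% of all measured genes, and 31.2% of that class were at least 2-fold higher. Of the genes above the floor on both arrays 3.31% were, as were 4 of the 4 members there.

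**Figure D2:**
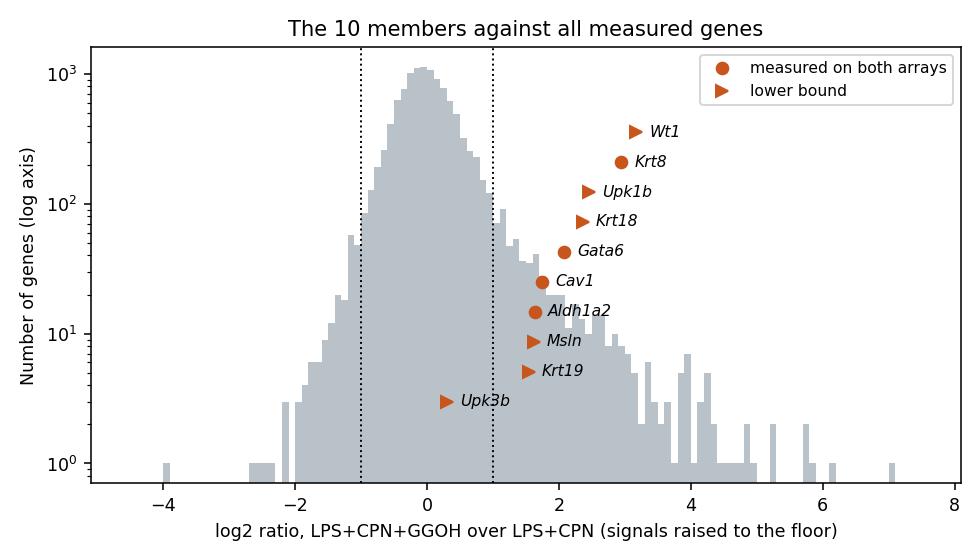
Number of genes (log axis) by log2 ratio of LPS+CPN+GGOH over LPS+CPN for all 11518 measured genes, with the 10 members drawn at their own ratio (their height has no meaning) and dotted lines at 2-fold. Circles are genes measured on both arrays and triangles are lower bounds; 9 members lie beyond the upper line and Upk3b lies inside it at 0.30.

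The transcription factor genes Gata6 and Wt1 differed in how well they were measured. Gata6 had signals of 99.1 with LPS+CPN and 420 with GGOH, a 4.24-fold difference (log2 ratio 2.08). A second Gata6 probe set, made from the same sequence record, gave 65.5 and 124, which is 1.89-fold (log2 ratio 0.92). The third gave 8.86 and 14.6 and was not measured on either array. The size of the Gata6 difference thus depended on the probe set, and the gap between the first and second is larger than the pooled SD between probe sets of a gene, 0.45 on the log2 scale. Wt1 was reported by 1 probe set, with 17.1 under LPS+CPN and 540 with GGOH. It was at least 9.02-fold higher, the highest gene-level bound among the members.

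Among the other GATA factors and their FOG cofactors, the FOG gene Zfpm2 was the only 1 of 3 measured genes at least 2-fold apart. Its signals were 2.02 and 253, at least 4.22-fold higher with GGOH. Of all measured genes 5.50% were at least 2-fold higher. Zfpm2 was above the floor with GGOH only, a class in which 31.2% of all genes were at least 2-fold higher. Gata2, a factor of blood progenitors and mast cells, had a log2 ratio of 0.51 and the FOG gene Zfpm1 one of -0.21. Gata1, Gata3, Gata4 and Gata5 were at or under the floor on both arrays, so Gata6 and Gata2 were the GATA factor genes measured. Of 10 measured WT1 targets and partners, 2 were at least 2-fold higher with GGOH, against 5.50% of all measured genes. These were Wnt4, a secreted signalling protein (at least 3.01-fold), and Podxl, the podocalyxin gene (at least 2.52-fold). Both were among 4 genes of that list above the floor with GGOH only, so they could not be counted as lower. Of all genes in that class 31.2% were at least 2-fold higher. A second measured Wnt4 probe set had a log2 ratio of 0.46, bounds included. The median of that list was -0.06, and Basp1, a WT1 corepressor, had signals of 26332 and 23034. Tcf21, a mesenchymal transcription factor of the same list, had a log2 ratio of -0.93.

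The surface protein genes were at or under the floor on the LPS+CPN array in every probe set. Msln encodes mesothelin, a protein held on the membrane by a lipid anchor. Its signals were 4.55 and 184, at least 3.07-fold higher with GGOH. Upk1b, a tetraspanin of urothelium and mesothelium, had 4 probe sets with 9.60 to 28.3 under LPS+CPN and 186 to 329 with GGOH. Probe sets of a gene are not replicates, and some of these are of the _x_at class. An _x_at probe set among them was made from the same sequence record as the representative one. The representative probe set was at least 5.49-fold higher. Over the 4 probe sets the bounds ran from at least 3.10-fold to at least 5.49-fold, so all of them were past 2-fold.

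Upk3b, a uroplakin also known from mesothelium, was the only member not counted as at least 2-fold higher, because its bound fell short. Its representative probe set had signals of 17.7 and 73.8, just above the floor with GGOH, and was at least 1.23-fold higher. The other probe set, from the same sequence record, had 4.59 and 208 and was at least 3.47-fold higher. The choice of probe set therefore decided whether Upk3b counted, and with the median over its probe sets the log2 ratio was 1.05. Chosen after signals were raised to the floor, the representative was that other probe set, with a log2 ratio of at least 1.79. The urothelial genes Upk1a (47.9 and 85.5) and Upk2 (20.8 and 68.0) were above the floor only with GGOH. Their bounds, at least 1.43-fold and at least 1.13-fold, do not settle whether they passed 2-fold. Upk3a was not measured, with signals of 8.73 and 9.18.

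Keratins form filaments from a type II and a type I chain, and Krt8 (type II) pairs with Krt18 (type I) in simple epithelia and mesothelium. Krt8 had signals of 93.8 with LPS+CPN and 723 with GGOH, a 7.70-fold difference, the highest of the members measured on both arrays. Both other Krt8 probe sets are of the _x_at class and gave 75.3 and 737 (9.78-fold) and 59.4 and 591 (at least 9.86-fold). Krt18 had signals of 49.2 and 308 and was at least 5.14-fold higher. The log2 ratios of the 3 Krt8 probe sets thus lay between 2.94 and 3.30, a bound included. Krt19, a type I keratin of simple epithelia, had signals of 27.6 and 174 and was at least 2.91-fold higher.

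Other keratins did not follow as a group. Of 13 listed, 5 were measured, with a median log2 ratio of -0.22. Krt7, the type II keratin of simple epithelia and mesothelium, was at least 4.28-fold higher, with signals of 33.1 and 256. Krt16, a keratin of activated epidermis, was lower (168 and 75.9, log2 ratio -1.15), and Krt10, of differentiated epidermis, had 135 and 134. Krt5 and Krt14, the basal epidermal pair, and Krt20 and Krt13 were at or under the floor on both arrays. Among junction and desmosome genes 3 of 7 measured passed 2-fold, all higher, and the median was 0.73. Of all measured genes 5.50% were at least 2-fold higher. The 3 genes were the N-cadherin gene Cdh2 (3.81 and 247, at least 4.13-fold), the desmoglein gene Dsg2 (39.3 and 243, at least 4.06-fold) and the plakophilin gene Pkp2 (56.0 and 182, at least 3.05-fold). All 3 were above the floor with GGOH only, a class in which 31.2% of all genes were at least 2-fold higher. Jup (0.72), Tjp1 (0.73), Ctnna1 (-0.40) and Ctnnb1 (-0.27) were above the floor on both arrays and short of 2-fold. The epithelial adhesion genes Cdh1 and Epcam and the tight junction genes Cldn1 and Ocln were not measured, nor was the desmoplakin gene Dsp.

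Aldh1a2, which makes retinoic acid from retinal, was above the floor in both cultures. Its signals were 180 and 560, a 3.11-fold difference (log2 ratio 1.64). Of 12 other measured genes of the retinoid pathway, 1 was at least 2-fold higher and none lower, against 5.50% and 1.66% of all measured genes. The higher gene was Crabp2, a cytoplasmic retinoic acid carrier, with signals of 4.20 and 133 (at least 2.22-fold). Crabp2 was above the floor with GGOH only, a class in which 31.2% of all genes were at least 2-fold higher. Rdh10, which makes retinal, had a log2 ratio of 0.97 (180 and 352), and Aldh1a1 was above the floor only with GGOH, at least 1.74-fold higher. The receptor genes Rara (-0.63), Rarg (-0.20), Rxra (-0.05), Rxrb (0.09) and Rxrg (-0.23) were short of 2-fold. The receptor gene Rarb was above the floor with GGOH only (54.7 and 78.9), at least 1.32-fold higher. Cyp26a1 and Cyp26b1, which break down retinoic acid and respond to it, were at or under the floor. The list's median of 0.05 became -0.08 with arrays divided by their medians.

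Cav1, which encodes the coat protein of caveolae, was above the floor on both arrays. Its signals were 607 with LPS+CPN and 2036 with GGOH, a 3.35-fold difference (log2 ratio 1.75). Caveolae need cavins as well as caveolins, and 4 of 6 other measured caveola genes were at least 2-fold higher and none lower. Of all measured genes 5.50% were at least 2-fold higher. These 4 caveola genes were above the floor with GGOH only, so they could not be counted as lower. Of all genes in that class 31.2% were at least 2-fold higher. With the median over probe sets 3 of the 6 were. Cavin2 (12.5 and 632) was at least 10.6-fold higher, Cavin1 (32.4 and 346) at least 5.77-fold, and Cavin3 (52.5 and 203) at least 3.38-fold. Ehd2, an ATPase at the neck of caveolae, was at least 2.42-fold higher. Over measured probe sets, bounds included, log2 ratios ran from 1.48 to 3.40 for Cavin2 and from 0.11 to 1.28 for Ehd2. Cav2, the partner of caveolin-1, had signals of 1570 and 1968 and a log2 ratio of 0.33, while the muscle gene Cav3 was not measured. The caveolin partners thus differed, with Cav1 past 2-fold and Cav2 short of it. The list's median was 1.52.

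A list of 23 other mesothelial genes was described in the same way, although some of its values were known before. Of 20 measured genes, 11 were at least 2-fold higher and 1 lower, with a median of 1.07, against 5.50% and 1.66% of all measured genes. Above the floor with GGOH only were 13 of the 20, so these could not be counted as lower. Of all genes in that class 31.2% were at least 2-fold higher, and of those on both arrays 3.31%. The median was short of 2-fold after quantile normalization (0.98) and with the median over probe sets (0.97). The highest bounds were those of Efemp1, a matrix glycoprotein (0.953 and 276, at least 4.60-fold), Krt7, Bnc1 and Cdh2. Bnc1, the zinc-finger factor basonuclin, had signals of 8.78 and 253 and was at least 4.22-fold higher. Of the 11 higher genes, Nkain4 alone was above the floor on both arrays (73.0 and 174, log2 ratio 1.25).

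Genes of that list with a strong signal in the LPS+CPN culture went the other way or hardly differed. Ezr, which links membrane to actin, was lower (6708 and 3262, log2 ratio -1.04). Pdpn, the podoplanin gene, had 24418 and 18332 (-0.41) and the protease inhibitor gene Slpi 12579 and 12756 (0.02). Muc16, the mesothelin ligand, and Calb2, the calretinin gene, are common mesothelial markers and were at or under the floor on both arrays. The mesothelial list was therefore not uniform. With the floor at the 75th percentile only Pdpn, Slpi and Ezr were measured, and the median was -0.41.

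Gata6 is also the factor of resident peritoneal macrophages, so a list of that programme was set beside it. Of 11 measured genes, 4 passed 2-fold, all higher with GGOH, against 5.50% of all measured genes. Measured on both arrays were the chemokine gene Cxcl13 (164 and 919, log2 ratio 2.48) and the integrin gene Itga6 (261 and 684, 1.39). Ltbp1, which binds latent TGF-beta (at least 3.47-fold), and Tgfb2 (at least 2.29-fold) were above the floor with GGOH only. Ltbp1 and Tgfb2 could thus not be counted as lower, and 31.2% of all genes in that class were at least 2-fold higher. A second measured Tgfb2 probe set had a log2 ratio of 0.57, bounds included. When each gene took its median probe-set value, the count fell from 4 to 3. The other 7 measured genes were not counted as 2-fold apart. Timd4, a receptor for apoptotic cells, had a log2 ratio of -0.53, the lysozyme gene Lyz1 -0.29, Saa3 -0.27, Prg4 -0.23 and the coagulation factor gene F10 -0.23. Fcna, a ficolin gene, was at 0.13, and the complement receptor gene Vsig4 was above the floor with GGOH only (26.5 and 62.9, at least 1.05-fold higher). Selp, Icam2, F5, Garnl3, Alox15 and Aspa were at or under the floor on both arrays. The list's median was 0.07, and it was -0.22 with arrays divided by their medians.

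**Figure D3:**
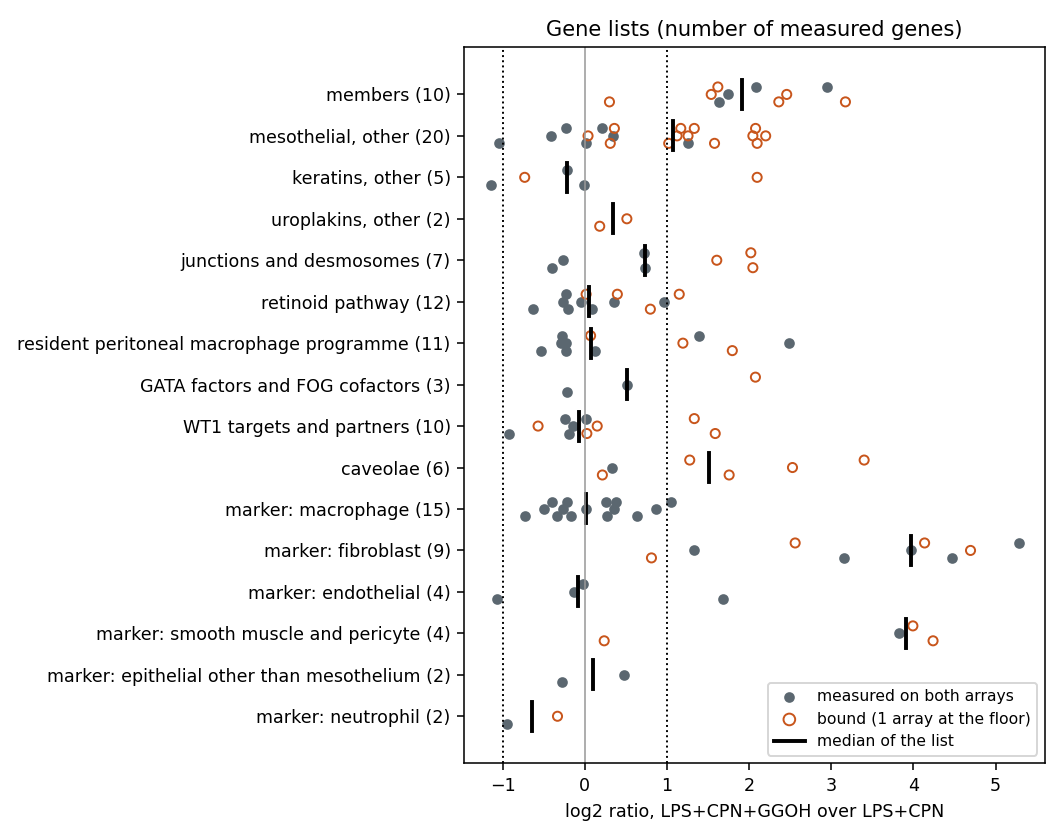
Log2 ratio of LPS+CPN+GGOH over LPS+CPN (horizontal axis) for each measured gene of the lists; grey points were measured on both arrays, open orange points are bounds, black bars are medians and dotted lines mark 2-fold. The medians of the members (1.91), caveola genes (1.52) and other mesothelial genes (1.07) lie beyond 2-fold, as do those of the fibroblast (3.97) and smooth muscle (3.91) markers, while the macrophage markers centre on 0.02. The median of other mesothelial genes is 0.98 after quantile normalization and 0.97 with the median over probe sets.

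Markers of several cell types were read beside the members. Macrophage markers were measured on both arrays for 15 of 15 genes, with Cd68 at 30430 and 30828 and Lyz2 at 38747 and 32153, so markers of the labelled cell type were present. Their log2 ratios ran from -0.73 (Mertk) to 1.05 (Itgam), with a median of 0.02, and their summed signal was 181763 and 168822. The median was -0.15 after division by array medians and 0.25 after quantile normalization. Fibroblast markers were at least 2-fold higher for 8 of 9 measured genes, against 5.50% of all measured genes. Of the 9, 5 were above the floor on both arrays and 4 with GGOH only. Of all genes in those classes 3.31% and 31.2% were at least 2-fold higher. The summed signal of the fibroblast list was 1234 with LPS+CPN and 22050 with GGOH. The collagen genes Col1a2 (log2 ratio 5.28), Col3a1 (at least 25.9-fold) and Col1a1 (at least 17.6-fold) and the matrix gene Fbln2 (4.47) led the list. The size depended on the probe set. Over measured probe sets, bounds included, log2 ratios ran from 0.88 to 5.83 for Col1a2, 0.86 to 4.69 for Col3a1 and 3.43 to 4.14 for Col1a1. Lum, Postn and Mfap5 of that list were at or under the floor by their representative probe sets. Of 4 measured smooth muscle and pericyte markers 3 were at least 2-fold higher (Tagln, Des and Acta2), against 5.50% of all measured genes. Tagln and Des were above the floor with GGOH only, so they could not be counted as lower. Of all genes in that class 31.2% were at least 2-fold higher. The summed signal of the smooth muscle and pericyte list was 425 and 6002. Myh11, Cnn1 and Rgs5 were under the floor. The part of these cell types in the members' values was not tested.

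Other candidate cells had few measured markers. Of 10 endothelial markers 6 were at or under the floor on both arrays, Pecam1, Cdh5, Tek, Tie1, Emcn and Cldn5. Of the 4 measured, Esam was higher (1.69) and Vwf lower (-1.07), and the summed signal was 545 and 624. Of 9 markers of other epithelia, Elf3 and Grhl2 were measured, with log2 ratios of 0.47 and -0.28, and the list's summed signal was 409 and 400.1. No marker of T cells (5 genes), B cells (4), mast cells (5) or adipocytes (3) was above the floor on either array. The neutrophil gene S100a8 had signals of 4282 and 2216 and Ngp 75.4 and 51.5, but S100a9 was at 3.49 and 2.59.

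Each array held 45101 probe sets, and the median signal was 56.7 with LPS+CPN and 63.7 with GGOH. The ratio of 3′ to 5′ signal, a sign of how complete the labelled RNA was, was 2.44 and 1.24 for the Actb control probe sets and 1.98 and 0.956 for Gapdh. This difference ran with the treatment, and its part in the members' values was not tested.

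Under 10 other ways of processing, the members kept their direction wherever they were measured, and what changed was the size. All member probe sets were higher as deposited, so another floor, the pseudocount or another choice of probe set could not reverse a direction. The kept direction is therefore no support for the difference. The 4 scalings moved the representative log2 ratio of no member by more than 0.45, and under each of them 9 of 10 members were at least 2-fold higher. A lower floor, at the 25th percentile (14.3), raised the Wt1 log2 ratio to 4.98 and that of Msln to 3.68, and brought Upk3b to 2.06. With the floor at the 75th percentile (376), 5 members were measured and Cav1 alone was at least 2-fold higher. Gata6 was then at 0.16, Wt1 at 0.52, Krt8 at 0.94 and Aldh1a2 at 0.58. These bounds shrink by construction, since the control signal is raised to the floor.

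**Figure D4:**
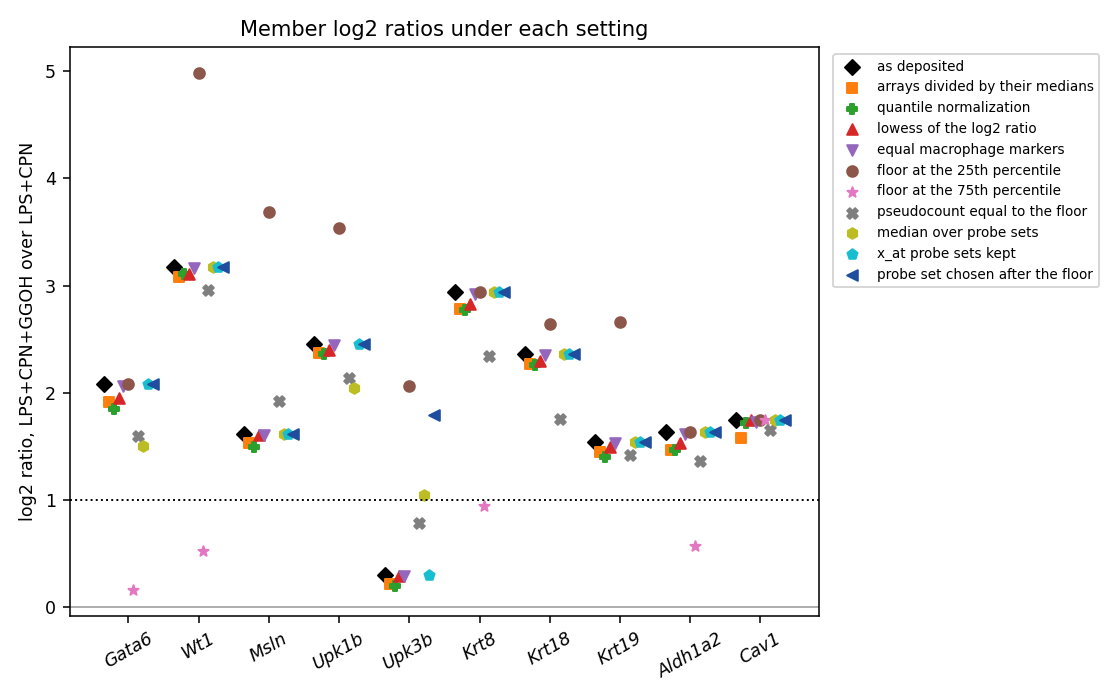
Log2 ratio of LPS+CPN+GGOH over LPS+CPN (vertical axis) of each member as deposited (black diamonds) and under 10 other settings (coloured marks), with 2-fold dotted. Cav1 stays between 1.58 and 1.75, whereas Wt1 runs from 0.52 to 4.98 with the floor, and marks are missing where a gene was not measured.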

How the data were processed

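RNA of 2 cultures, 1 per treatment, was labelled with biotin and put on 1 array each, per the labels' protocols. The authors deposited 1 signal intensity per probe set on a linear scale, and MAS5 is named in the submitters' processing notes with no version or scaling target. The mean of the central 96% of deposited signals was 500.0 on both arrays, so no further scaling was applied. Probe sets were named with the platform annotation: 34945 had 1 gene symbol, 932 several and 9160 none, and 2038 _x_at probe sets were kept out of gene values.

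A gene took its probe set of highest mean log2 deposited signal, and its signals were then raised to the floor and log2-transformed. With 1 array per group no test was run, and precision is limited by that number of arrays. As a scale of error, log2 ratios of different probe sets of a gene had a pooled SD of 0.45 over 4166 genes. This SD used probe sets above the floor on both arrays, without the _x_at class. Alternatives were 4 scalings (array medians, quantile, lowess with span 0.4, and macrophage markers set to a median of 0), a floor at the 25th or 75th percentile, the floor added as a pseudocount, the median over probe sets, and _x_at probe sets kept. Choosing the probe set after the floor was added after seeing the data. All members are named; of each other list, the genes at least 2-fold apart (up to 4 per direction) are named, and other named genes were chosen after their values were seen. The members and lists were chosen with earlier results of these data known. Steps were tested on simulated data, with Python 3.11.15 and statsmodels 0.14.6.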

Additional observations from a re-analysis of the deposited data

How the results depend on the processing

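Counts past 2-fold and medians depended mostly on the floor, and the cause of other changes was not tested. No paired analysis was possible because there was 1 array per treatment. With the floor at the 25th percentile the members' median was 2.65 and 1658 genes were at least 2-fold higher and 1127 lower. The medians were then 1.94 for other mesothelial genes, 1.27 for other uroplakins, 2.03 for caveola genes, 3.29 for fibroblast and 2.33 for smooth muscle markers. Genes at least 2-fold higher were then 3 other keratins, 1 other uroplakin, 3 retinoid genes, 3 GATA and FOG genes, 5 WT1 targets and 2 endothelial markers. Genes at least 2-fold lower were 3 other keratins, 3 junction genes, 1 resident macrophage gene, 1 smooth muscle marker and 2 markers of other epithelia.

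With the floor at the 75th percentile 1 member was at least 2-fold higher, the members' median was 0.58, and 126 genes were higher and 88 lower. The median of other mesothelial genes turned to -0.41, over 3 measured genes. Medians were -0.27 for junction, 0.54 for caveola genes, 2.02 for fibroblast and 1.59 for smooth muscle markers. Counts at least 2-fold higher were 0 for other mesothelial, junction, retinoid and caveola genes, WT1 targets and macrophage markers, and 1 for resident macrophage genes.

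Genes at least 2-fold lower numbered 332 when each array was divided by its median (the median of all genes then was -0.17) and 307 after quantile normalization. Under both of these and lowess, 1 WT1 target was lower and 0 macrophage markers were higher. With arrays divided by their medians 1 neutrophil marker was lower, and after lowess 0 other mesothelial genes were. With the pseudocount 0 macrophage markers and 2 retinoid genes were higher, 0 other keratins and 0 endothelial markers were lower, and the fibroblast median was 3.08. The median over probe sets gave a fibroblast median of 2.56. With the probe set chosen after the floor, added after seeing the data, 10 members and 663 genes were at least 2-fold higher. The remaining 424 values of counts and medians stayed within the limits of 1.5 times or 0.45.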
